A study of Mus musculus with 8 samples.

Results

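Cells whose B-cell receptor light chain used IGKV14-111's V segment, 1 of the kappa variable genes, were chosen by the V gene call of the light chain, among barcodes with exactly 1 heavy and 1 light chain, here called paired cells. There were 1473 such cells among 40603 paired cells, of which 38806 were kappa. The 37333 other kappa cells served as the comparison. The receptors came from spleen germinal-centre B cells of mice on day 10 after immunization, enriched with beads against peanut agglutinin binding and read by droplet single-cell sequencing of receptor transcripts. There were 4 libraries of wild-type mice (WT, Dtx1+/+) and 4 of mice lacking Deltex-1 (KO, Dtx1-/-), which attaches ubiquitin to proteins and acts in Notch signalling. The question of the series was whether Dtx1 regulates the homeostasis of these cells. All animals were immunized and there was no unimmunized group. The sources used here do not give the immunogen, the number, age or strain of the mice, or the sort gates. Receptor contigs hold no Dtx1 and no germinal-centre marker transcripts, so neither the knockout nor the cell type label could be checked in these data.

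A kappa light chain is built from 1 V and 1 J segment joined on chromosome 6, and the third complementarity-determining region (CDR3) spans that joint, while CDR1 and CDR2 are encoded in the V segment itself. Each B cell pairs this chain with a heavy chain assembled from V, D and J segments, and both chains together form the antigen-binding site. In germinal centres the enzyme AID introduces point mutations into both V regions, preferentially in short sequence motifs, and also drives the switch from IgM to other heavy-chain classes.

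The gene lies on chromosome 6 (68256404 to 68256869, GRCm38.p6) between Igkv2-112 and Igkv1-110 in the annotation. Its unmutated V region, taken as the most common sequence over the 818 clones of both genotypes, was 261 nucleotides long, was the most common form in each genotype alone, and was carried by 561 of those clones. It is shown because all mutation values refer to it, and capitals mark CDR1 and CDR2.
IGKV14-111's V region: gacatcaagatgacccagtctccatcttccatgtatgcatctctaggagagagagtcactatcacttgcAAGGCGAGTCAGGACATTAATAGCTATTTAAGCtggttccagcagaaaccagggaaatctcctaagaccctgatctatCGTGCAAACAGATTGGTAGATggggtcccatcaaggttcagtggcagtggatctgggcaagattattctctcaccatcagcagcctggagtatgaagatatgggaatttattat
IGHV1-4, on chromosome 12 (114487136 to 114487429), was the heavy V gene found most often beside it. Its unmutated V region of 285 nucleotides is shown for that reason, with CDR1 and CDR2 in capitals.
IGHV1-4 V region: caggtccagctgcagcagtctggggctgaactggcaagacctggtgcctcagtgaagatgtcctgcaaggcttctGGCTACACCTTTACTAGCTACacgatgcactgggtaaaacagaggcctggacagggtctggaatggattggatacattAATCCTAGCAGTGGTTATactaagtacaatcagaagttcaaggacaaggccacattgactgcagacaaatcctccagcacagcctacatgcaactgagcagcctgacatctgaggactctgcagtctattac

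Cells with this light chain numbered 193, 175, 184 and 164 in the 4 WT libraries, and the 4 KO libraries held 213, 176, 194 and 174. A clone was a set of cells with the same heavy and light V and J genes and similar heavy CDR3s, and the cells formed 372 clones in WT and 446 in KO. A count of 3 cells equals 1.41 to 1.83% of such cells in a library, and intervals given below cover counting error only. Libraries of 1 genotype shared 20 to 36 identical clonotypes of this gene for each of 12 pairs of libraries, against 0 to 3 for each of 16 pairs that crossed genotype. The 4 libraries of a genotype thus held cells of the same clones and are treated as 1 pool, so every SD and p-value below describes the spread between loadings, and a difference between WT and KO compares 2 pools. Pairs of libraries shared 28 to 54 paired barcodes, and none of these had the same heavy CDR3 in both. Heavy-chain unique molecular identifiers (UMIs, which count transcripts) had medians of 14 to 17 in WT and 24 to 30 in KO cells of the gene, against 22 to 26 and 38 to 42 in other kappa cells, and their part in the results was not tested except where values at matched UMIs are given.

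The gene was among the most used kappa V genes in every library. It made up 4.25, 4.00, 4.23 and 3.80% of kappa cells in the WT libraries (mean 4.07% ± 0.211, SD, n = 4) and 3.97, 3.18, 3.57 and 3.56% in the KO libraries (mean 3.57% ± 0.323, SD, n = 4). The values of the genotypes overlapped. By cells the gene ranked 4 to 6 in WT and 4 to 7 in KO among kappa V genes. Counted by clones, its share was 4.99% ± 0.373 in WT and 4.2997% ± 0.315 in KO (SD, n = 4), ranking 3 or 4 in WT and 1 to 3 in KO among kappa V genes. These shares are a description, since the gene was chosen with its use in these data known. For 63.6% of the 66 kappa V genes with at least 100 cells, the libraries of WT and KO did not overlap, and this gene was not one of them. Its family member IGKV14-100 made up 1.21% ± 0.1002 of kappa cells in WT and 0.524% ± 0.0553 in KO, and IGKV14-126 made up 0.546% ± 0.0957 and 0.533% ± 0.0867 (SD, n = 4).

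IGKV14-111's chain was seen with 68 IGHV genes in WT and 64 in KO, of which 57 were common to both, and IGHV1-4 was the partner of the most clones in each genotype. Counted over each pool, IGHV1-4 was the heavy gene of 54 of 372 WT clones (14.5%, exact 95% interval 11.1 to 18.5%) and of 61 of 446 KO clones (13.7%, 10.6 to 17.2%). IGHV1-9 followed with 29 WT clones (7.80%, 5.28 to 11.004%) and 42 KO clones (9.42%, 6.87 to 12.5%), so that in KO the intervals of the first and the next partner overlapped. Among other kappa clones IGHV1-4 was the heavy gene of 0.838% in WT and 0.854% in KO, and IGHV1-9 of 5.70 and 4.01%. Per library, IGHV1-4 made up 13.8, 15.8, 19.5 and 20.7% of IGKV14-111's clones in WT and 18.1, 16.4, 15.8 and 17.2% in KO. It made up 0.695 to 1.02% of other kappa clones in the same libraries, so the ranges did not meet in any of the 8 libraries. With each clone counted once per library, the log2 difference was 4.31 ± 0.18 (SE; edgeR quasi-likelihood test blocked on library, adjusted p = 1.14e-76 over the 64 IGHV genes tested). Clones found in several libraries of a pool were counted in each, so this p is smaller than one over animals would be.

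Of the 64 IGHV genes tested, 9 were called higher beside the gene than beside other kappa chains (14.1%) and 21 lower (32.8%), by edgeR at an adjusted p under 0.05. The median log2 difference over all 64 was -0.60, against which single genes are to be read, and it was -0.90 with TMM factors and -1.15 in DESeq2. With DESeq2, 6 genes were called higher and 29 lower. The other genes higher included IGHV1-9, which made up 9.69% ± 2.01 of IGKV14-111's clones in WT and 11.8% ± 1.39 in KO, against 6.22% ± 0.600 and 4.24% ± 0.419 of other kappa clones (SD, n = 4). Its log2 difference was 1.06 ± 0.16 (SE, edgeR adjusted p = 1.12e-09), and it was 0.45 with DESeq2, still past the threshold. IGHV1-76 made up 5.55% ± 1.73 of clones in WT and 3.18% ± 0.875 in KO libraries, against 1.00% ± 0.238 and 1.53% ± 0.223 beside other kappa chains (log2 difference 1.73 ± 0.28, edgeR adjusted p = 3.26e-08). Over each pool these were 10 clones with 62 cells in WT and 13 clones with 25 cells in KO.

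IGHV1-7, whose unmutated V region differs from that of IGHV1-4 at 7 of 285 nucleotides (97.5% identity), was also called higher, with 12 clones in WT and 15 in KO and a log2 difference of 1.71 ± 0.33 (SE, edgeR adjusted p = 3.53e-06). Genes this alike can be exchanged when a V gene is assigned. IGHV1-43 was rare, with 9 clones beside the gene (5 of 372 in WT, 4 of 446 in KO) and 8 beside all other kappa chains (7 of 6684 and 1 of 9483), and was called higher (edgeR adjusted p = 2.30e-05). IGHV1-55 made up 8.02% ± 2.14 and 7.07% ± 0.584 of clones in WT and KO against 4.92% ± 0.164 and 3.55% ± 0.317 (log2 difference 0.84 ± 0.18, adjusted p = 5.19e-05), and this call was lost with DESeq2 (log2 difference 0.24, adjusted p = 0.199).

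The heavy genes lower beside it included some of the common ones of the whole response. IGHV8-8 made up 4.77% ± 0.385 of other kappa clones in WT and 6.60% ± 0.215 in KO, but 1.11% ± 0.964 and 1.32% ± 0.139 of IGKV14-111's clones (SD, n = 4), a log2 difference of -2.18 ± 0.30 (SE, edgeR adjusted p = 9.10e-11). IGHV1-26 made up 3.83% ± 0.380 and 4.24% ± 0.259 of other kappa clones and was found in 4 WT and 2 KO clones of the gene (log2 difference -2.81 ± 0.42, adjusted p = 1.12e-09). IGHV1-69 had 2 WT clones and IGHV2-2 had 5, and neither was found among the 446 KO clones (0%, exact 95% interval up to 0.824%), against 1.57 and 1.68% of other kappa clones for IGHV1-69 and 1.84 and 1.82% for IGHV2-2 in WT and KO (edgeR adjusted p = 1.51e-05 and 0.000107). IGHV2-5, with 4 clones in each genotype, and IGHV1-62-2, with 1 in WT and 3 in KO, were also lower (edgeR adjusted p = 0.00022 for each). The IGHV2-5 clones of WT all came from replicate 2. The remaining frequent partners were IGHV1-81 (log2 difference -0.47 ± 0.19, adjusted p = 0.0307, a call lost in 6 of 8 fits that left out a library), IGHV9-3 (-0.85 ± 0.25, adjusted p = 0.0029), and IGHV1-53 and IGHV1-64, which were not called (0.11 ± 0.26 and -0.31 ± 0.27).

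**Figure D1:**
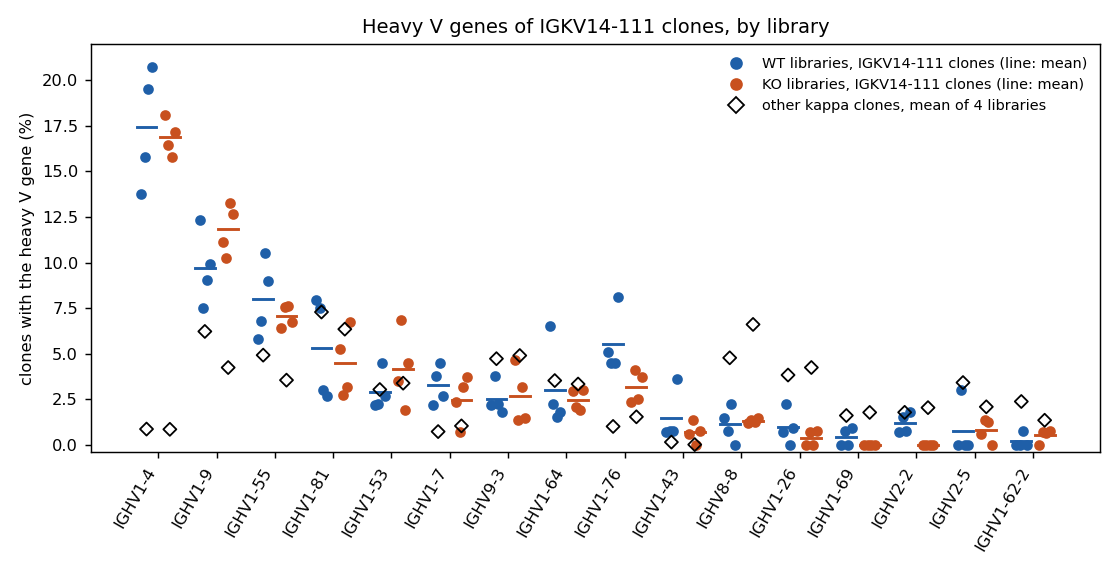
Share of IGKV14-111's clones (y axis, percent of the clones of a library) that used each of 16 named heavy V genes (x axis). Points are the 4 WT (blue) and 4 KO (orange) libraries, short lines are their means, and open diamonds are the mean share among other kappa clones. IGHV1-4 stood at 13.8 to 20.7% in all 8 libraries, and its diamonds lie below 1%.

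Whether the preference itself differed by genotype was tested as an interaction. None of the 64 IGHV genes was called (0.0% by edgeR at an adjusted p under 0.05, smallest 0.0799; 8 had an unadjusted p under 0.05 in edgeR and 7 in DESeq2, which also called 0). The interaction for IGHV1-4 was -0.02 ± 0.31 on the log2 scale (SE). With cells in place of clones 6 genes were called, with clones of identical heavy CDR3 there were 3, and without KO replicate 1 there were 2.

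Seen from the heavy side, the light chain was IGKV14-111's in 49.1% of the 110 WT and 43.0% of the 142 KO kappa clones with IGHV1-4. It ranked first among 30 light V genes in WT and 35 in KO, and the next gene held 4.55% in WT and 8.45% in KO. That next gene in KO was IGKV14-126, and in WT it tied with 2 others at 5 clones each. IGKV14-126 is also the gene closest to it in sequence (21 differences in 261 nucleotides, 92.0% identity), and the annotation used here lists it as a V segment pseudogene although its contigs were productive. IGHV1-4 was the heavy gene of 16.8% of its 101 clones over both pools. Across 54 other light V genes with at least 100 clones the IGHV1-4 share ran from 0 to 16.8% with a median of 0.547%, and it was 1.83% in IGKV14-100, the next in identity with enough clones (82.0%). IGKV14-130 followed at 80.1% identity. By the distance between whole heavy-partner profiles, summed from the absolute differences of clone shares and scaled from 0 to 1, IGKV5-48 (0.355), IGKV8-30 (0.378) and IGKV6-13 (0.381) came nearest to it and IGKV14-126 was in place 5 of 54 (0.387), where the median was 0.496. These are descriptions over light V genes that share the same libraries.

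The joints of the IGHV1-4 clones were set beside those of other clones, as values without a test. Among IGKV14-111's clones, IGKJ4 was used by 37.0% of those with IGHV1-4 in WT and 41.0% in KO, against 10.7 and 10.1% of those with other heavy genes. IGKJ1 showed the reverse, at 3.70 and 4.92% against 18.2 and 15.1%. IGHV1-4 clones with other kappa chains used IGKJ4 at 10.7 and 17.3% and IGKJ1 at 28.6 and 27.2%. The heavy CDR3 had a median of 12 residues in these IGHV1-4 clones in each genotype and 11 in the others, and IGHJ4 was used by 29.6 and 50.8% against 19.2 and 19.0%. IGHV1-4 clones with other kappa chains had medians of 11 residues in WT and 12 in KO and used IGHJ4 at 21.4 and 35.8%, and all other kappa clones had medians of 13 and 12 and used it at 27.4 and 27.9%. IGHV1-4 cells were low in heavy-chain UMIs whichever light chain they had. Their library medians were 9 to 14 with this light chain and 8 to 15 with other kappa chains, against 17 to 37 in cells of the gene with other heavy genes.

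Tested as heavy and light V pairs over all paired cells, 149 of 214 pairs differed between KO and WT (69.6%, edgeR, adjusted p under 0.05). Of the 6 pairs of this gene with enough cells, 2 were called, both lower in KO. The pair with IGHV1-76 was found in 21, 13, 15 and 13 cells of the WT libraries and in 7, 7, 4 and 7 cells of the KO libraries, without overlap. This was 0.330% ± 0.0720 of paired cells in WT and 0.115% ± 0.0297 in KO (SD, n = 4; log2 difference -1.52 ± 0.33, SE, adjusted p = 2.91e-05). A single WT clone held 21 of the 62 WT cells and another held 15. With each clone counted once per library the difference was -0.95 (edgeR adjusted p = 0.0379), but clones found in several libraries were still counted in each. Counted once over each pool, the pair made up 2.69% of IGKV14-111's clones in WT (10 clones) and 2.91% in KO (13 clones). These are shares of the gene's clones, not of all paired cells as in the test. Their exact intervals for counting error overlapped (1.30 to 4.89% in WT and 1.56 to 4.93% in KO). With so few clones, these shares cannot decide whether the pair was rarer in KO by pool clones. The pair with IGHV1-4 numbered 38, 33, 40 and 43 cells in WT and 42, 31, 33 and 27 in KO, and the counts overlapped. Its log2 difference was -0.44 ± 0.17 (SE, edgeR adjusted p = 0.0156), a call lost with each clone counted once (-0.20, adjusted p = 0.436), with TMM factors, with DESeq2, with no filter, and without WT replicate 4 or KO replicate 2. The pairs with IGHV1-9 (0.36 ± 0.20), IGHV1-55 (-0.44 ± 0.28), IGHV1-53 (0.52 ± 0.44) and IGHV1-81 (-0.39 ± 0.38) did not pass the test, though IGHV1-9 was called higher in KO with TMM factors (0.56, adjusted p = 0.0108) and without WT replicate 1 (0.51, adjusted p = 0.0444).

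The gene was joined to IGKJ2 more often and to IGKJ1 less often than other kappa V genes in all 8 libraries. IGKJ2 made up 47.2, 40, 49.5 and 47.6% of IGKV14-111's cells in WT and 40.4, 47.2, 41.8 and 46.0% in KO. In other kappa cells it made up 33.5 to 36.5% in WT and 28.6 to 29.6% in KO. The mean difference within libraries was 13.1 percentage points (exact sign-flip permutation test over 8 libraries, two-sided, p = 0.00781, the smallest it can give, adjusted p = 0.0109 over 14 measures, higher in 8 of 8 libraries). IGKJ1 made up 15.0% ± 4.71 of IGKV14-111's cells in WT and 16.4% ± 1.28 in KO, against 28.4% ± 0.712 and 27.0% ± 0.169 (SD, n = 4), and was lower in 8 of 8 libraries by a mean of -11.9 percentage points (exact adjusted p = 0.0109). IGKJ5 was lower in 8 of 8 libraries by -1.50 points (exact adjusted p = 0.0109), a call lost with each clone counted once, at matched UMIs, without the largest clone of each genotype, and without IGHV1-4 cells (-0.153 points, adjusted p = 0.984). IGKJ4 did not pass the test over all cells (0.383 points, exact adjusted p = 0.825). Without IGHV1-4 cells IGKJ4 was lower, by -4.67 points (exact adjusted p = 0.0219), a fit added after seeing the data. Between KO and WT, no J gene was called within cells of the gene, with differences of 1.37 points for IGKJ1, -2.23 for IGKJ2, -3.32 for IGKJ4 and 4.18 for IGKJ5 (exact permutation tests over the 70 assignments of 8 libraries, adjusted p from 0.0762 to 0.64).

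A few of IGKV14-111's light CDR3s were carried by most cells, the 4 with the most clones in 67.9% of WT and 77.7% of KO cells. There were 110 distinct nucleotide CDR3s over 1473 cells. Mutated forms of a joint were counted as distinct, so these counts and shares also depend on mutation. Of the cells, 95.9% had a CDR3 of 9 residues. The 23 nucleotides at its start, tgtctacagtatgatgagtttcc, were found in this form in 90.2% of cells and in 28 of the 110 sequences. Of the 110 sequences, 22 were found in both genotypes (there were 87 in WT and 45 in KO), and these 22 were carried by 87.7% of WT and 96.0% of KO cells. The 8 of these with the most clones follow, and capitals mark the nucleotides after the common start. CDR3 8, which is 1 codon shorter, has no capitals because it does not hold the whole common start.
CDR3 1: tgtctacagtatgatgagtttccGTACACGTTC
CDR3 2: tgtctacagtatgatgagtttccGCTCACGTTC
CDR3 3: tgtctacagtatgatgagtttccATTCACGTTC
CDR3 4: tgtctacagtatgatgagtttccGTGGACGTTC
CDR3 5: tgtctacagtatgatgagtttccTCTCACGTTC
CDR3 6: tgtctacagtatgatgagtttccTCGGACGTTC
CDR3 7: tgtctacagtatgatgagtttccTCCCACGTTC
CDR3 8: tgtctacagtatgatgagttgtacacgttc
CDR3 1, always joined to IGKJ2, was carried by 537 cells in 292 clones with 59 different IGHV genes. It made up 31.1, 30.9, 39.1 and 39.6% of IGKV14-111's cells in the WT libraries and 36.6, 40.3, 32.99 and 42.0% in the KO libraries, which overlapped. CDR3 2 (IGKJ5, 253 cells, 146 clones, 41 IGHV genes) made up 13.5, 13.1, 16.3 and 14.0% in WT and 22.5, 18.8, 19.1 and 19.0% in KO. Its values did not overlap between genotypes, and it was alone in this among the 8 (12.5%). CDR3 3 (IGKJ4, 199 cells, 106 clones) made up 14.0% ± 0.628 in WT and 12.9% ± 2.96 in KO, and 98 of its cells had IGHV1-4. CDR3 4 and CDR3 6, both with IGKJ1, were carried by 85 and 94 cells in 54 and 36 clones. CDR3 5 (IGKJ5, 47 cells) followed, then CDR3 7 (27 cells, with more than 1 J gene) and CDR3 8 (IGKJ2, 16 cells).
Light CDR3s of other V genes were shared between the pools as well. A light CDR3 also found in the other pool was carried by 84.1% of WT and 95.5% of KO clones of the gene, a mean of 89.8%. The comparison held 55 light V genes, this one included. Over the others, the same mean had a median of 87.4% and ran from 43.5 to 96.3%.

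**Figure D2:**
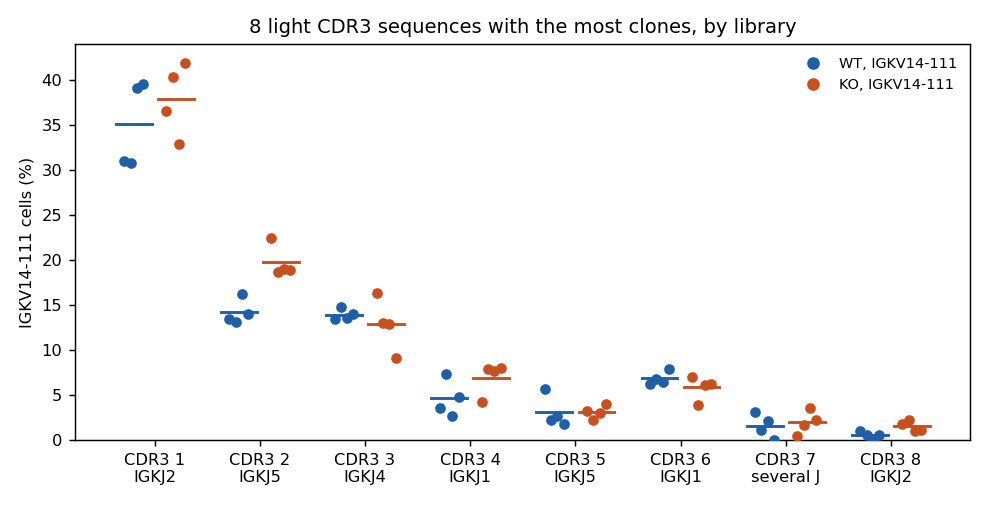
Share of IGKV14-111's cells (y axis, percent of the cells of a library) with each of the 8 light CDR3s that had the most clones and were found in both genotypes (x axis, with the J gene). Points are libraries and short lines are means. CDR3 1 stood at 30.9 to 42.0% in all libraries, and CDR3 2 is the only one whose WT and KO points do not overlap.

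Heavy chains with the same predicted CDR3 residues also recurred across the genotypes beside this light chain. The 5 with the most cells are shown as nucleotides, 1 sequence from each genotype, so that the codon differences between the pools can be seen.
IGHV1-9 set 1, WT: tgtgcaagacggtttgcttactgg
IGHV1-9 set 1, KO: tgtgcaagaaggtttgcttactgg
IGHV1-76 set 2, WT: tgtgcaagaggggggtactttgactactgg
IGHV1-76 set 2, KO: tgtgcaagagggggctactttgactactgg
IGHV1-76 set 3, WT: tgtgcaagaggggggtacttcgatgtctgg
IGHV1-76 set 3, KO: tgtgcaagaggggggtacttcgatgtctgg
IGHV1-9 set 4, WT: tgtgcaagaggactgggacgcgactactgg
IGHV1-9 set 4, KO: tgtgcaagagggctgggacgggactactgg
IGHV1-53 set 5, WT: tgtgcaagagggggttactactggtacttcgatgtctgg
IGHV1-53 set 5, KO: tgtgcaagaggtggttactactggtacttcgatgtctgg
The first IGHV1-9 set had 24 cells, 8 in WT and 16 in KO, with IGHJ3 and a CDR3 of 6 residues, and the sequences shown differ at 1 nucleotide. The IGHV1-76 set with IGHJ2 had 22 cells, 18 in WT, and the sequences differ at 1 nucleotide. The IGHV1-76 set with IGHJ1 had 14 cells, 7 in each genotype, and its sequences were identical. The other IGHV1-9 set had 8 cells and 2 differing nucleotides, and the IGHV1-53 set had 5 cells and 1 differing nucleotide. The first 3 sets were each joined to 3 different kappa J genes.

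IGKV14-111's clones were many and small. In WT, 277 of 372 clones were a single cell and 30 had 5 cells or more, and in KO these numbers were 326 of 446 and 22. The largest clones are shown by the heavy CDR3 found in most of their cells.
WT clone of 22 cells: tgtgcaaggtggtatgattaccttcaactg
WT clone of 21 cells: tgtgcaagagggggttacaatgactactgg
WT clone of 20 cells: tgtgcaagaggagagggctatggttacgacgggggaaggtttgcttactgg
KO clone of 18 cells: tgtgcaagaggcgtgggaagggactactgg
KO clone of 15 cells: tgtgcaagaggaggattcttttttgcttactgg
KO clone of 14 cells: tgtgcaagaaggtttgcttactgg
The WT clones used IGHV1-4 with IGHJ2 and IGKJ1, IGHV1-76 with IGHJ2 and IGKJ5, and IGHV1-4 with IGHJ3 and IGKJ4, and a further WT clone, of IGHV1-58, also had 20 cells. All 3 of the KO clones used IGHV1-9 with IGKJ2, and all 6 of the clones shown were found in all 4 libraries of their genotype. The heavy CDR3 of the KO clone of 14 cells is the KO sequence of IGHV1-9 set 1 above, so the lists share cells. The KO sequence of IGHV1-9 set 4 is similar enough to the KO clone of 18 cells to be joined to it by the clone rule. Whether all cells of such a clone arose from 1 rearrangement was not tested. Both WT clones of IGHV1-4 shown above had no V-region mutation in any cell and no switched cell. The IGHV1-76 clone had 19 of 21 cells without a heavy V-region mutation, and the KO clones had 17 of 18, 12 of 15 and 12 of 14. The IGHV1-58 clone had 1 of its 20 cells free of heavy mutations. Among the next WT clones by size, another of IGHV1-76 had 1 of 15 such cells and another of IGHV1-4 had 3 of 12. Those of IGHV1-9 and IGHV1-55 had 18 of 19 and 11 of 11. The largest clone of a library held 4.15, 4.57, 4.35 and 4.88% of these cells in WT and 1.88, 2.27, 2.06 and 2.30% in KO, without overlap. The chance that 2 cells drawn from a library belong to 1 clone (Simpson index) was 0.725% ± 0.156 in WT and 0.300% ± 0.0649 in KO (SD, n = 4), without overlap. The test could give no smaller p than the 0.0286 found (exact permutation test, two-sided), which adjusted to 0.0571 over 16 measures and did not pass. With clones defined by identical heavy CDR3 the difference was -0.209 in place of -0.425 points. For 7 other kappa V genes with at least 100 cells in every library, the mean of the library medians of this index was 1.66% in WT and 1.40% in KO, and this gene was lower in 8 of 8 libraries (exact sign-flip adjusted p = 0.0109). The 7 genes were chosen by cell number, which large clones raise, and no set chosen by clone number was compared.

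Cells of the gene were class-switched more often than other kappa cells. Among cells with a named constant gene, 18.4, 17.3, 16.8 and 19.5% were switched in the WT libraries and 14.7, 8.19, 14.0 and 10.4% in the KO libraries, against 6.84 to 7.99% and 6.18 to 6.78% of other kappa cells. The switched share was higher in 8 of 8 libraries by a mean of 8.05 percentage points (exact sign-flip permutation test, adjusted p = 0.0109). In cells with 20 to 40 heavy-chain UMIs it was 8.06 points, and without IGHV1-4 cells 9.52 points. IgG1 was higher by 4.52 points (8 of 8 libraries, exact adjusted p = 0.0109), IgG2b by 2.07 points (6 of 8, adjusted p = 0.0365) and IgG3 by 0.665 points (7 of 8, adjusted p = 0.0298). The IgG2b and IgG3 calls were each lost in 6 of 8 tests that left out a library, and the IgG3 difference was 0.0323 points at matched UMIs. The share of IgG1 among switched cells did not pass the test (0.0766 points, exact adjusted p = 0.992).

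Between the genotypes, the switched share of IGKV14-111's cells was 18.0% ± 1.19 in WT and 11.8% ± 3.06 in KO (SD, n = 4) and did not overlap, a difference of -6.21 points (exact permutation p = 0.0286, the smallest possible, adjusted p = 0.0571 over 16 measures). Among cells of matched heavy-chain UMIs (20 to 40, which left 42 to 60 cells of the gene per library) the genotypes differed by -0.185 points. Switched cells were 60 IgG1, 39 IgG2b, 13 IgG2c, 15 IgG3 and 1 IgA in WT, and 68 IgG1, 13 IgG2b, 0 IgG2c and 9 IgG3 in KO. IgG1 made up 65.7, 26.7, 41.9 and 50% of switched cells in WT and 64.5, 78.6, 74.1 and 94.4% in KO. These shares overlapped by WT replicate 1 and differed by 31.8 points. In cells of 20 to 40 heavy-chain UMIs the difference was -1.67 points. It rests there only on the switched cells among the 42 to 60 cells per library, too few to read as an absence of the difference. In the same matched cells the IgG2b difference was 0.136 points in place of -3.92. In other kappa cells of any UMI count, IgG1 made up 44.9% ± 0.686 of switched cells in WT and 78.9% ± 1.28 in KO (SD, n = 4). No IgE was found. The gap between the gene and other kappa cells in switched share was smaller in KO by -5.39 points (exact permutation p = 0.0286, adjusted p = 0.1 over 14 measures, not called).

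**Figure D3:**
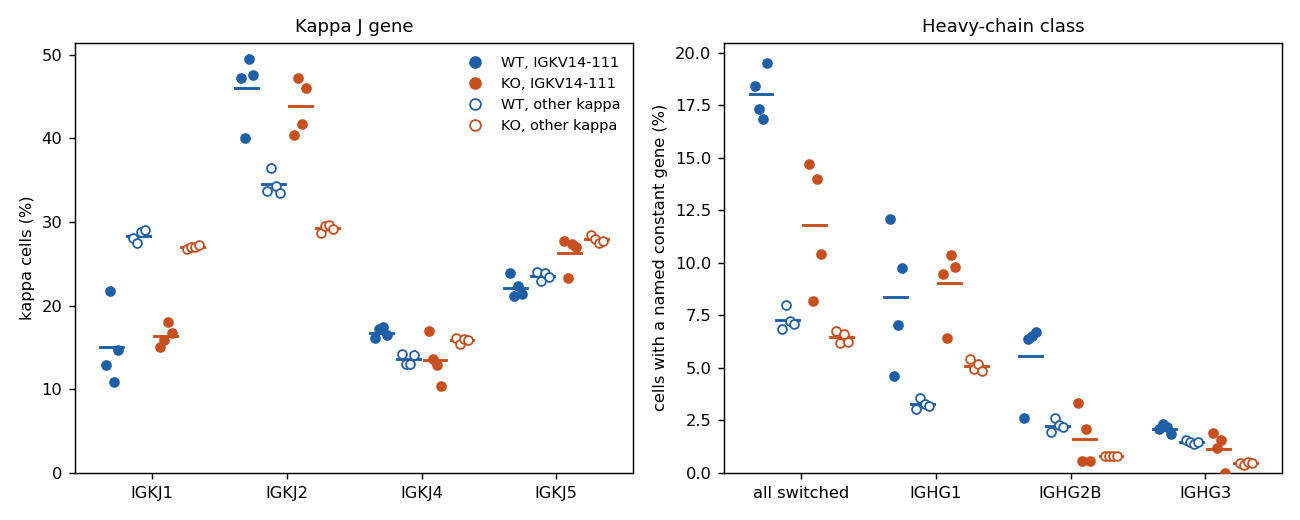
Share of cells (y axes, percent) with each kappa J gene (left) and with each heavy-chain class (right). Filled points are IGKV14-111's cells and open points other kappa cells, blue for WT and orange for KO libraries, and short lines are means. These cells lie above other kappa cells for IGKJ2 and for all switched classes together, and below them for IGKJ1, in all 8 libraries.

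Cells of the gene carried more V-region mutations than other kappa cells, in both chains and in every library. The light V region was mutated at 0.522, 0.451, 0.396 and 0.392% of nucleotides in WT and at 0.186, 0.170, 0.142 and 0.145% in KO, against 0.190 to 0.215% and 0.104 to 0.109% in other kappa cells. The mean difference within libraries was 0.145 percentage points (8 of 8 libraries, exact sign-flip adjusted p = 0.0109). For the heavy V region the values were 0.809% ± 0.0968 in WT and 0.424% ± 0.0397 in KO, against 0.427% ± 0.0153 and 0.216% ± 0.0175 (SD, n = 4), a difference of 0.295 points (8 of 8, exact adjusted p = 0.0109). In IgM cells alone, an alternative added after seeing the data, the differences were 0.0858 and 0.192 points (exact adjusted p = 0.0127 for both). At 20 to 40 heavy-chain UMIs they were 0.200 and 0.367 points, and without IGHV1-4 cells 0.170 and 0.346 points, each past the threshold. Cells that were IgM or IgD with no mutation in either V region, the marker set used here for naive-like cells, made up 37.1 to 45.7% of IGKV14-111's cells in WT and 59.8 to 66.1% in KO, against 60.5 to 62.9% and 73.0 to 74.1% of other kappa cells. Other marker sets held few cells, with 5 IgD cells and 1 cell with a heavy gene typical of B-1 cells among the 1473. IgD was rare in other kappa cells too, at 1 to 33 cells per library, so few IgD cells were not particular to the gene. Cells with such a B-1 heavy gene numbered 19 to 85 per library there. Cells with heavy-chain UMIs above the 99th percentile of a library, taken as plasma-cell-like, made up 0 to 1.14%. In other kappa cells they made up 0.936 to 1.08%, a share that the cutoff itself sets.

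Between the genotypes, the light-chain values did not overlap (0.440% ± 0.0608 in WT, 0.161% ± 0.0209 in KO, SD, n = 4), and neither did the heavy-chain values. The differences of -0.279 and -0.384 points reached the smallest possible p (exact permutation p = 0.0286, adjusted p = 0.0571 over 16 measures) and did not pass after adjustment. Cells with an unmutated light V region were 57.6% ± 2.27 in WT and 80.5% ± 1.82 in KO, and with an unmutated heavy V region 45.9% ± 3.34 and 68.0% ± 3.71. Over cells of 20 to 40 heavy-chain UMIs the light-chain difference was -0.315 points and in IgM cells alone -0.204 points. In other kappa cells light-chain mutation was 0.204% ± 0.0109 in WT and 0.107% ± 0.00230 in KO. The gap between the gene and other kappa cells was 0.236 points in WT and 0.0535 in KO, smaller in KO by -0.183 points (exact permutation p = 0.0286, adjusted p = 0.1 over 14 measures, not called). In this family of 14 interaction tests, 4 had that p (light-chain mutation, unmutated light chains, switched cells and IGKJ4), and none passed after adjustment.

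Mutation was also set out by class and by heavy partner, as values without a test. Switched cells of the gene had 0.979% ± 0.272 light-chain mutation in WT and 0.549% ± 0.191 in KO, and IgM cells 0.317% ± 0.0839 and 0.113% ± 0.0136 (SD, n = 4). Of WT cells, 38.8% were mutated in both V regions, 15.4% in the heavy one alone and 2.85% in the light one alone. In KO these shares were 16.98, 14.97 and 2.54%. Cells with IGHV1-4 had 0.287% ± 0.139 light-chain mutation in WT against 0.485% ± 0.0660 in those with other heavy genes, and 9.45% ± 6.56 of them were switched against 20.6% ± 3.15. The 154 WT cells with IGHV1-4 include the clones of 22 and 20 cells that had no mutated and no switched cell. In KO the light-chain values were 0.139% ± 0.0392 and 0.165% ± 0.0254, and the switched shares 10.1% ± 3.75 and 12.2% ± 2.95 (SD, n = 4).

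**Figure D4:**
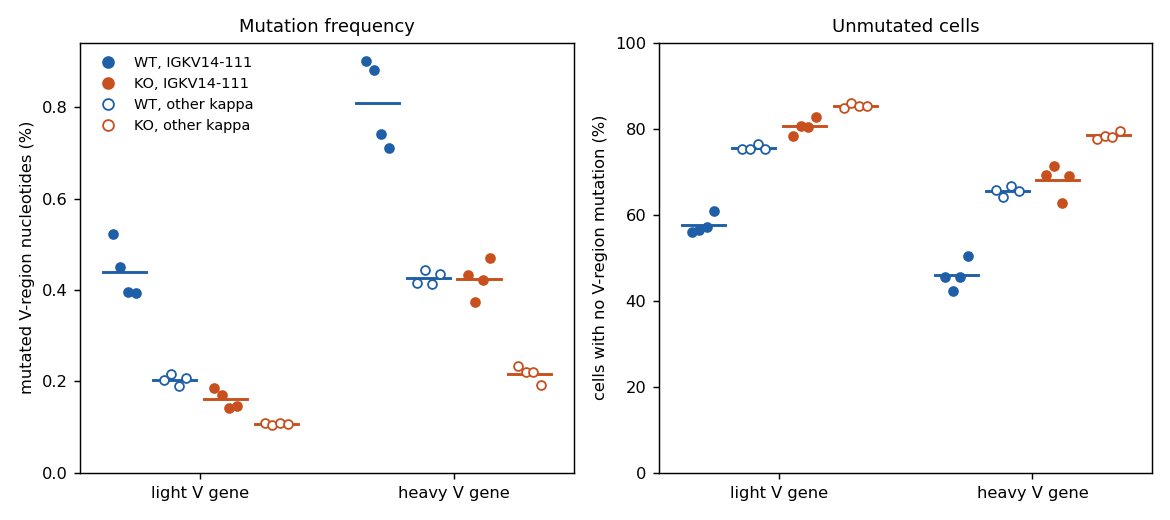
Mutated V-region nucleotides (left, percent) and cells with no mutation in the V region (right, percent) for the light and heavy V genes. Filled points are IGKV14-111's cells and open points other kappa cells, blue for WT and orange for KO libraries, with means as short lines. The cells of the gene had a light-chain mutation frequency of 0.392 to 0.522% in WT and 0.142 to 0.186% in KO, above other kappa cells of the same library.

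Within IGKV14-111's V region, mutations were densest in CDR1. CDR1 was mutated at 0.872% ± 0.204 of its nucleotides in WT and 0.349% ± 0.0976 in KO, CDR2 at 0.755% ± 0.0927 and 0.297% ± 0.0575, and the frameworks at 0.311 to 0.374% in WT and 0.0826 to 0.150% in KO (SD, n = 4). Counting a substitution once per clone gave 758 in WT and 301 in KO, of which 67.5 and 66.4% changed the encoded residue. Of those at C or G, 68.3% in WT and 75.9% in KO lay in an AID-preferred triplet (AAC, AGC, TAC or TGC at its C, or the reverse complements GTT, GCT, GTA or GCA at its G, overlaps allowed), and these cover 24 of the 118 C or G positions of the germline (20.3%). In all, 202 of the 261 positions were mutated in at least 1 clone.

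The 8 substitutions found in the most clones all lay at such positions. Positions are counted from 1 at the start of framework 1, as are codons. C102T, silent in codon 34, was carried by 22 WT and 15 KO clones, and G101A, which changes that codon (S34N), by 23 and 9. In codon 31, C93T (silent) was carried by 17 and 14 clones, G92A (S31N) by 21 and 9, and C93G (S31R) by 10 and 6. Both codons are serine codons of CDR1 and are AGC followed by T, so that AGC and its reverse complement GCT overlap there. G237A in framework 3, also silent, was carried by 15 clones in each genotype. G37A (A13T) in framework 1 was carried by 18 WT and 2 KO clones, and G163A (V55I) in CDR2 by 12 and 4. Silent and replacement changes recurred side by side at codons 31 and 34, in clones of both genotypes.

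**Figure D5:**
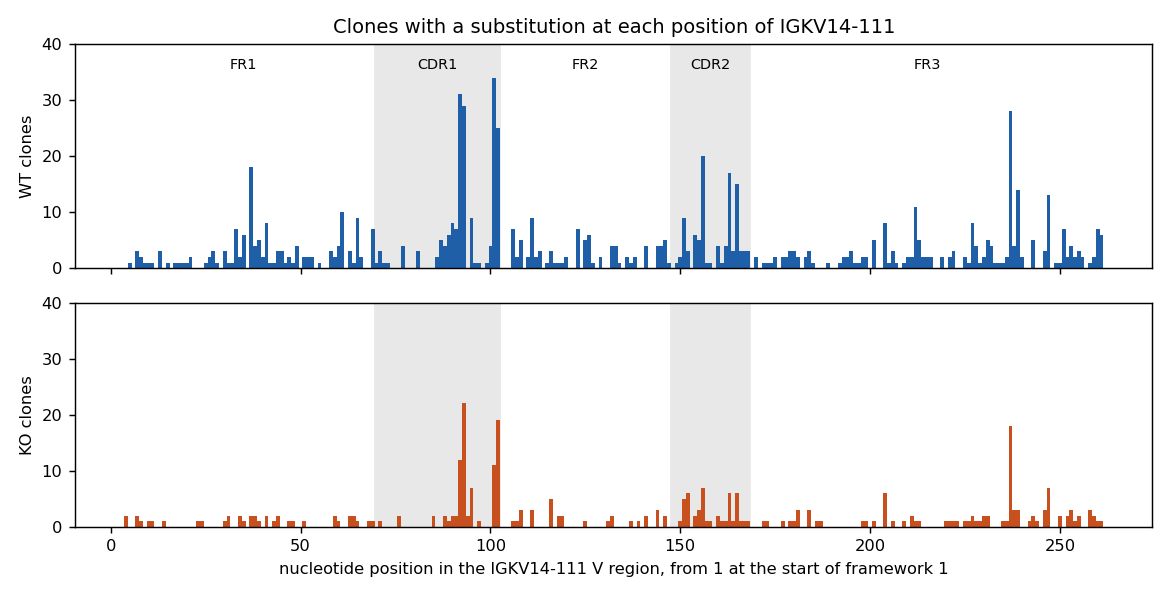
Number of clones (y axis) with a substitution at each nucleotide of IGKV14-111's V region (x axis, counted from the start of framework 1), for WT (top) and KO (bottom). Grey bands are CDR1 and CDR2. The tallest bars in CDR1 are positions 92, 93, 101 and 102, and in framework 3 position 237, in both genotypes.

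Not every contig of the gene fell in a paired cell. Of 2155 contigs with this V gene, 1473 (68.4%) were in paired cells, against 73.1% of 51050 contigs of other kappa V genes. Barcodes with this light chain and no heavy chain held 19.8% of its contigs, 16.1 to 22.8% per library, against 10.1% for other kappa V genes, 7.58 to 13.2% per library. Barcodes with 1 heavy and more than 1 light chain held 7.01% against 11.7%, and those with more than 1 heavy chain 4.87% against 5.11%. Every barcode of 1 heavy chain was also included, 1623 in place of 1473 cells. The differences in switching and in light-chain mutation between KO and WT were then -7.34 and -0.284 points and passed the test (exact permutation, adjusted p = 0.0416 for both). No unadjusted p could fall below 0.0286, which both differences had already reached in paired cells. Passing thus depended on how many of the 16 measures reached it.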

How the data were processed

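Paired B-cell receptor sequencing of 8 libraries was used. Per the submitters' processing notes, the authors used Cell Ranger, R 4.3.1 and mm10. The deposited tables list contigs with read counts and UMI counts as whole numbers, without normalization, per the file headers. Library totals were 754954 to 1155339 UMIs. Clones shared the V and J genes of both chains and the heavy CDR3 length, joined at a nucleotide identity of at least 0.85. Germlines were inferred as the commonest V region over at least 20 clones. An allele or a mutation common to most clones would be missed. Doublets were handled only by leaving out barcodes with more than 1 heavy or light chain. Cells without a germline value (1 light chain, and 15 heavy chains in WT and 8 in KO) were left out of mutation.

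Single values were tested by exact permutation over libraries, with Benjamini-Hochberg adjustment within 16, 14 and 14 tests. Counts of clones and cells were tested with edgeR 4.0.16 (quasi-likelihood, minimum count 5, total 10) in R 4.3.3, called at an adjusted p under 0.05, with DESeq2 1.42.0 as an alternative. The edgeR and permutation scripts were tested on simulated data. Python 3.11.15, pandas 2.3.3, NumPy 2.4.6 and SciPy 1.17.1 were used. Named genes were the 8 most frequent partners, up to 6 called each way by smallest p, and all tested pairs called between genotypes. All J and constant genes were also named. So were the 8 leading shared light CDR3s and substitutions, 5 shared heavy CDR3s and 3 largest clones per genotype. IGHV1-58, the smaller WT clones set beside it and the uncalled pairs were added after their values were seen. The members, lists and rules were chosen with earlier results of these data known. All 91 gene names of these cells matched RefSeq (GRCm38.p6).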

Additional observations from a re-analysis of the deposited data

Results flagged for a closer look

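Among 52 groups of 4 libraries checked, 3 had a library far from the other 3, about as many as chance gives (about 1 in 20). KO replicate 2 had 23.3% IGKJ5 where the other KO libraries had 27.0 to 27.7%. WT replicate 1 had 2.63% IgG2b where the other WT libraries had 6.36 to 6.71%. WT replicate 1 also had 6.52% of its clones with IGHV1-64 where the others had 1.504 to 2.26%.

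The gap between the gene and other kappa cells differed between genotypes for 4 of 14 measures by the unadjusted exact permutation test (p = 0.0286 each, adjusted p = 0.1). The KO gap minus the WT gap was -5.62 percentage points for IGKJ4, -5.39 for switched cells, -0.183 for light-chain mutation and 13.1 for cells with an unmutated light V region. With each clone counted once the IGKJ4 difference was -2.30 points, and at matched heavy-chain UMIs the switched difference was -2.19 points.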

How the results depend on the processing

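Over 845 alternative values of 59 results, 753 kept direction and side of the threshold, 31 lost the threshold, 32 gained it, 24 reversed and 5 values without a test moved. The preference of heavy partners (30 genes called) ranged from 21 to 35 called genes and IGHV1-4 stayed at 3.73 to 4.77 (log2). Against other kappa cells, switched cells stayed 7.43 to 9.52 points higher, IGKJ2 12.4 to 17.9 points higher, light mutation 0.0858 to 0.200 points and heavy mutation 0.192 to 0.367 points higher.

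With each clone counted once, KO minus WT passed its threshold for switched cells (-7.80 points), light mutation (-0.312) and heavy mutation (-0.463), each with an adjusted exact permutation p of 0.0457. With all barcodes of 1 heavy row it did so for switched cells (-7.34), light mutation (-0.284), heavy mutation (-0.399) and the Simpson index (-0.337), at 0.0416. No unadjusted p could fall below 0.0286, which all of these differences had already reached in the main comparison. Passing thus depended on how many of the 16 measures reached it. These differences had the same sign with any library left out, at -7.17 to -5.00, -0.295 to -0.252, -0.417 to -0.354 and -0.483 to -0.358. The count of heavy genes with a preference that differed by genotype was 6 by cells, 3 with identical CDR3s as the clone rule and 0 to 2 with a library left out, the 2 without KO library 1. Of the 6 pairs with this light chain, 1 was called by clones and 1 by DESeq2, against 2. With a library left out 7 to 9 such pairs were tested and 2 to 3 called, IGHV1-58 and IGHV1-7 among them. Over all pairs 42 of 75 were called by clones and 366 of 3849 with no filter, against 149 of 214.

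Some values reversed. KO minus WT for IgG1 was -0.251 with at least 5 UMIs in both chains, -0.0178 at 20 to 40 heavy UMIs and -0.617 to 1.88 with a library left out, and IGKJ1 gave -0.0238 to 3.59. At 20 to 40 heavy UMIs IgG2b was 0.136 (-3.92 over all cells), IgG3 0.848 (-0.950) and IgG1 of switched cells -1.67 (31.8). Against other kappa cells, IGKJ4 was -3.30 at 20 to 40 heavy UMIs, -0.00132 with all barcodes of 1 heavy row, -4.67 without IGHV1-4 cells and -0.186 to 1.23 with a library left out. IgG1 of switched cells was -0.494 by clones, -0.284 with at least 5 UMIs, -0.444 with all barcodes and -2.98 to 2.63 with a library left out. IGHV1-53 preference was -0.31 by cells, -0.19 by TMM, -0.49 by DESeq2, -0.014 with identical CDR3s and -0.065 to 0.25 with a library left out. The cause of these changes was not tested.

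Replicate numbers did not pair the libraries (correlations -0.012, -0.230, -0.123 and -0.168). With the replicate number as a block, 143 pairs were called against 149, and the same 2 with this light chain. No single value of these cells changed its side of the threshold, but blocked permutations of 16 assignments cannot go below p = 0.125 and say nothing about stability. Depth limits these values, with 42 to 60 cells per library at 20 to 40 heavy UMIs.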
